A study of Homo sapiens with 6 samples.

Results

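The 92 genes described here were the protein-coding genes whose mRNA was clearly lower after knockdown of PRMT1 in MM.1S, a human myeloma cell line. They were chosen by their measured values, from 58735 genes in all. Candidates were 7755 protein-coding genes outside the mitochondrial genome and the X and Y chromosomes with a mean FPKM (fragments per kilobase of gene, scaled for library size, so a level per length) of at least 3 over the 6 libraries. PRMT1, OAS1, CCL3, ISG15 and the named families of respiratory chain and mitochondrial ribosome genes were left out of the candidates. A candidate became a member when all 3 knockdown libraries lay below all 3 control libraries and the mean of log2(FPKM + 1) differed by -0.35 or less between knockdown and control. Since this contrast chose the members, its values are given below as a description with no test.

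The Control group held 3 libraries of MM.1S cells given a non-targeting siRNA (si-NC), and the PRMT1 KD group held 3 libraries of the same line given siRNA against PRMT1. Both groups share the line, the transfection at 100 nM siRNA and, by the study's RNA-seq figure legend, a time of 72 h after transfection. The labels do not say whether the libraries of a group came from separate cultures. The study's methods call the repeats of each experiment dependent biological replicates, without a statement on the RNA-seq libraries, so the spread between libraries may understate that between independent cultures. A single cell line and a transient knockdown limit the groups as a model of myeloma.

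PRMT1 is the main enzyme that places asymmetric dimethyl marks on arginine, on histones and on many RNA-binding and signalling proteins. Myeloma cells are malignant plasma cells, which secrete large amounts of immunoglobulin and therefore depend on the endoplasmic reticulum, the Golgi and protein quality control. They carry surface receptors such as SLAMF7 and can respond to interferon, which raises antiviral enzymes such as the oligoadenylate synthetases through a short promoter element, the interferon-stimulated response element.

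PRMT1 itself stood at 61.7, 62.8 and 58.9 FPKM in Control libraries 1 to 3 and at 13.3, 14.02 and 12.5 FPKM in PRMT1 KD libraries 1 to 3. Its knockdown mean was 21.7% of the control mean (log2 difference -2.13, limma adjusted p = 2.77e-05). Between 14439217 and 16465026 reads per library lay behind the FPKM values. All 9 plasma cell markers examined had a mean of at least 1 FPKM, led by JCHAIN at 519.6 FPKM. Of the markers of other cells, CD3E of T cells (35.8 FPKM) and KRT8 of epithelium (20.9 FPKM) were also well above 1 FPKM, while none of 5 monocyte, 3 erythroid and 4 stromal markers reached 1 FPKM. The summed T cell markers ranged from 35.9 to 39.4 FPKM in Control and from 39.9 to 42.6 FPKM in PRMT1 KD, and the summed epithelial markers from 20.8 to 23.6 and from 19.9 to 20.6 FPKM. Of the other T cell markers CD3G was at 3.05 FPKM, CD3D at 0.405, TRAC at 0.118 and CD2 at 0.00616 FPKM. The other epithelial markers were all under 1 FPKM, with EPCAM at 0.546, KRT18 at 0.0318 and KRT19 at 0 FPKM. KRT8 thus made up nearly all of the epithelial sum.

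The siRNA sequences are shown because a guide can also act on other mRNAs that match its seed, bases 2 to 8 of the guide strand. The study lists 3 siRNAs against PRMT1 and does not name the one used for these libraries. Each target below is the PRMT1 mRNA sequence, 5′ to 3′, with the 7 bases that pair with the seed in capitals.
si-PRMT1-1 (exon 4): gcaactccatgTTTCATAa
si-PRMT1-2 (exon 10): agacggtgttcTACATGGa
si-PRMT1-3 (exon 11): ccatcgacctgGACTTCAa
All 3 lie in coding exons of PRMT1 on the plus strand of chromosome 19 (GRCh38, GENCODE 29), at 49681947-49681965 in exon 4, at 49686635-49686653 in exon 10 and at 49688178-49688196 in exon 11 of the longest coding transcript. The first target is in 11 of 11 coding transcripts of PRMT1, and each of the others is in 4 of 11.

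In annotated 3′ UTRs, the site TTTCATA of si-PRMT1-1 was found in 9 of 92 members (9.78%) and in 22.7% of the candidates with a 3′ UTR. TACATGG of si-PRMT1-2 occurred in 2 members (2.17%) against 9.98% of candidates, and GACTTCA of si-PRMT1-3 in 11 members (11.96%) against 13.8%. Members had shorter 3′ UTRs, so the sites were also counted per length, in the longest 3′ UTR of each gene. On that scale the 3 sites stood at 1.43, 0.205 and 1.13 per 10 kb in members and at 1.56, 0.523 and 0.763 per 10 kb in candidates. On this scale only the si-PRMT1-3 site was denser in the members, and no test was run. In all, 18 members (19.6%) held at least 1 of the 3 sites, as did 35.4% of candidates.

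Of the 25 leading members 9 held at least 1 site, which is close to the share of 35.4% in the candidates. The 3 siRNAs differed: 4 leading members held the site of si-PRMT1-1, 0 that of si-PRMT1-2 and 6 that of si-PRMT1-3. The shares in candidates were 22.7%, 9.98% and 13.8%. These counts were not adjusted for 3′ UTR length, and no test was run. Examples from the leading members show where the matches lie. The windows below run 5′ to 3′ on the mRNA, with the seed match in capitals.
OAS2, si-PRMT1-1: gcaaacccTTTCATAaagtcttg
SLC35F5, si-PRMT1-1: ttcttcatTTTCATAatgaagca
LITAF, si-PRMT1-3: taactgcaGACTTCAttagcaca
ASB2, si-PRMT1-3: caccacttGACTTCAgagctttc
SMCO4, si-PRMT1-3: gcctttcaGACTTCAaagcgcgc
The OAS2 site (chr12:113010622-113010628, plus strand, exon 10 of 10) was in 4 of 4 annotated 3′ UTRs of the gene. That of SLC35F5 (chr2:113715048-113715054, minus strand) was in 1 of 2. For LITAF (chr16:11549095-11549101) the site was in 5 of 12, for ASB2 (chr14:93934279-93934285) in 2 of 2 and for SMCO4 (chr11:93478767-93478773) in 2 of 3, all on the minus strand. In OAS2, SLC35F5 and SMCO4 the match was followed by A. SMCO4 also held the site of si-PRMT1-1. A match of 7 bases is a description of the sequence, and its part in the lower values was not tested.

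Upstream sequence was searched for the core of the interferon-stimulated response element, a repeat of GAAA with 2 free bases between the copies, on both strands in the 250 bases before the RefSeq start (GRCh38.p14). Other short motifs were searched in the same 250 bases, and only this core is shown. A promoter was matched for 73 of 92 members by symbol or older symbol. This is fewer than 80%, so no share over the members was formed. Of the 6502 candidates matched, 2.29% held the core. It was found upstream of 4 members, shown here with the core in capitals.
IFITM1: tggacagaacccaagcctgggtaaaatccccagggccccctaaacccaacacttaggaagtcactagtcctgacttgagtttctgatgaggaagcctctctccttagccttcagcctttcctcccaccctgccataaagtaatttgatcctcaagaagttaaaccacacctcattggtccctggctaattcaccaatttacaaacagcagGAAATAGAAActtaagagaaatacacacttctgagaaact
IFI27: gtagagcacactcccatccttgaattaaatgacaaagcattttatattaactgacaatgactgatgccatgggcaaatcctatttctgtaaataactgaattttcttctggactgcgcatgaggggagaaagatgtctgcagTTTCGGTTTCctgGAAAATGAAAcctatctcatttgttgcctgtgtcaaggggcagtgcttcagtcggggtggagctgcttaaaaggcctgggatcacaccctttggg
TMEM140: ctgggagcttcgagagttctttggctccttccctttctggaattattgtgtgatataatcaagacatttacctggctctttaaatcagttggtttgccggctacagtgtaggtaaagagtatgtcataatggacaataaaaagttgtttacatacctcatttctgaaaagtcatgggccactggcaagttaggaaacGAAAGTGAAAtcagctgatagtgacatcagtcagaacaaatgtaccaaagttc
ARMC9: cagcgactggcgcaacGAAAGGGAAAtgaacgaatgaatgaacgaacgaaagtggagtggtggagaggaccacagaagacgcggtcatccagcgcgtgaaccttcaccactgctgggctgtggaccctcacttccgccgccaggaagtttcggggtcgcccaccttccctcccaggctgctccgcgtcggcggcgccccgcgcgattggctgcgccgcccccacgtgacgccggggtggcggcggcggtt
These windows lie at chr11:313790-314039, chr14:94110486-94110735, chr7:135147822-135148071 and chr2:231198381-231198630, all on the plus strand. The core began 40 bases before the RefSeq start in IFITM1 and 53 bases before it in TMEM140. IFI27 carried 2 matches on opposite strands, beginning 108 and 95 bases before the start, and the match of ARMC9 lay 234 bases before it. IFITM1 and IFI27 are known interferon-induced genes, and no promoter was matched for OAS2.

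Across the 92 members the log2 difference, PRMT1 KD minus Control on the log2(FPKM + 1) scale, ran from -1.08 (OAS2) to -0.35 (HILPDA) with a median of -0.43. As linear means, PRMT1 KD lay between 40.2% and 78.5% of Control, with a median of 71.7%. Only OAS2 differed by 1 or more on the log2 scale, 21 others by at least 0.5, and 5 members were under 60% of Control. The limit of the rule cut through a continuous range of values. Just inside the limit were HILPDA (-0.3502), C6orf48 (-0.3503) and CHAC1 (-0.353), and just outside it LGALS3 (-0.348), FES (-0.346) and GGN (-0.344). In bulk RNA, a lower level in every cell and fewer cells with the mRNA cannot be told apart. Mean levels of the members ran from 3.20 to 297 FPKM, with a median of 9.81 FPKM against 10.8 FPKM in the candidates.

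**Figure D1:**
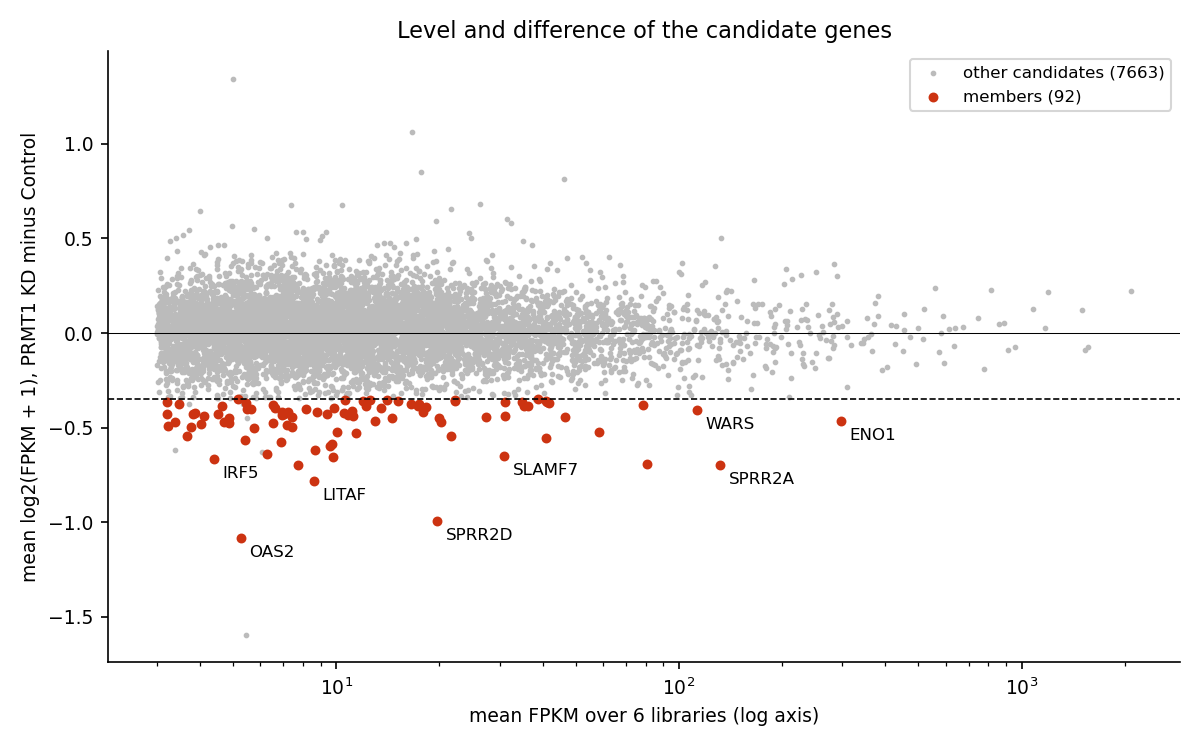
Each point is 1 of 7755 candidate genes, with the mean FPKM over 6 libraries on a log axis and the difference in mean log2(FPKM + 1), PRMT1 KD minus Control, on the vertical axis. The 92 members, in red, lie at or under the dashed line at -0.35 and spread over the whole range of levels up to ENO1, and the 6 grey points under the line are genes whose groups overlap.

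The members were sorted into 8 groups by their known roles after they were known. The interferon-linked and inflammatory group of 7 genes had the lowest median, 62.5% of Control, followed by 10 leukocyte receptor, signalling and transcription genes at 68.8%. Medians of the other groups lay between 70.3% (other and little-described genes) and 74.1% (lysosome and secretory pathway). The groups overlapped widely, since the highest member of each lay between 73.3% and 78.5% of Control.

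**Figure D2:**
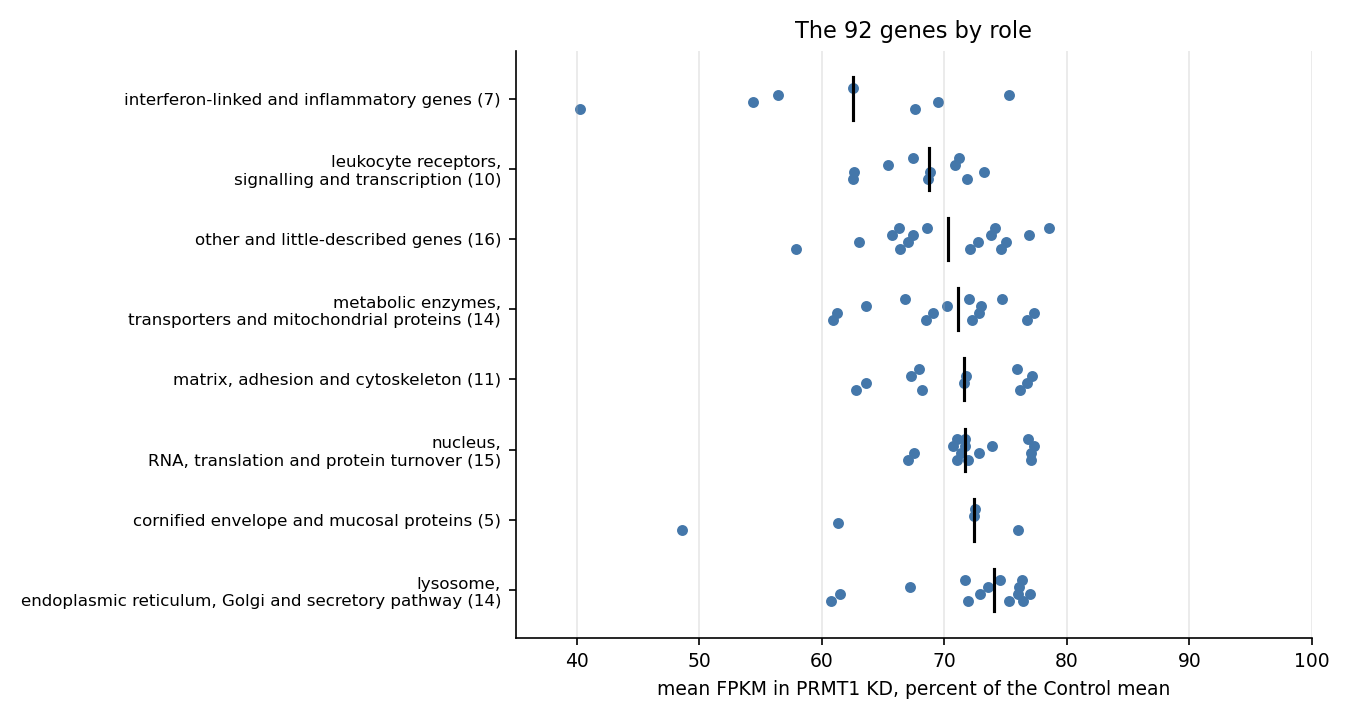
Each point is 1 member, placed by its mean FPKM in PRMT1 KD as a percentage of the Control mean (horizontal axis) within its role group, with the number of genes in brackets; the black bar is the group median. OAS2 at 40.2% and SPRR2D at 48.6% stand to the left of all others, and every group reaches past 70%.

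Among the interferon-linked genes, OAS2 (ENSG00000111335, chr12:112978395-113011723) makes the oligoadenylates that activate the antiviral nuclease RNase L. It stood at 7.91, 7.51 and 7.06 FPKM in Control libraries 1 to 3 and at 3.35, 2.71 and 2.99 FPKM in PRMT1 KD libraries 1 to 3, from 731 to 821 and from 244 to 347 reads. The lowest control library was thus 3.71 FPKM above the highest knockdown library. IRF5, a transcription factor of the interferon response to Toll-like receptors, measured 5.56, 5.94 and 5.34 FPKM in Control and 3.50, 2.89 and 3.11 FPKM in PRMT1 KD. LITAF, a membrane protein of late endosomes first described as a factor induced by lipopolysaccharide, went from 12.1, 10.6 and 10.9 FPKM to 6.44, 5.60 and 6.18 FPKM. Both knockdown means were 56.4% and 54.4% of Control.

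IFITM1, a membrane protein that restricts virus entry, measured 9.62, 8.38 and 8.57 FPKM in Control and 6.62, 5.21 and 6.14 FPKM in PRMT1 KD. Its close relatives IFITM2 and IFITM3 were at 0.0924 and 0.421 FPKM, and since reads of near-identical copies can be split by the counting, the IFITM1 value is uncertain. The chemokine CCL5, which attracts T cells, read 4.31, 4.47 and 4.76 FPKM in Control and 2.16, 2.62 and 3.69 FPKM in PRMT1 KD, on only 54 to 119 reads. The knockdown libraries of CCL5 were spread more widely than the controls. IFI27, an interferon-induced protein of mitochondria and the nuclear envelope, had 6.13, 4.93 and 4.93 FPKM against 3.52, 3.40 and 4.20 FPKM. WARS, the tryptophanyl-tRNA synthetase that interferon gamma induces, was the most abundant of the group at 131, 131 and 126 FPKM in Control and 94.8, 97.1 and 99.96 FPKM in PRMT1 KD. Of the relatives of OAS2 examined, OAS3 averaged 0.147 FPKM and OASL 1.90 FPKM.

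Leukocyte receptors were led by SLAMF7, a surface receptor of plasma cells and the target of the antibody elotuzumab. It measured 37.8, 39.0 and 37.1 FPKM in Control and 23.4, 22.9 and 25.1 FPKM in PRMT1 KD, from 1595 to 3042 reads, a knockdown mean of 62.7% of Control. Libraries within each group differed by little beside the gap of 12.01 FPKM between the groups. LILRB1, an inhibitory receptor for class I molecules of the major histocompatibility complex, stood at 6.54, 7.13 and 6.36 FPKM against 4.18, 4.36 and 3.99 FPKM. ITGB2, the beta chain of the leukocyte integrins, had 6.84, 6.38 and 5.93 FPKM against 4.86, 4.65 and 4.25 FPKM. SPN, the leukocyte sialoglycoprotein CD43, averaged 67.4% of Control.

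Inside the cell, BATF, a leucine zipper transcription factor of lymphocytes, read 4.56, 4.62 and 4.51 FPKM in Control and 3.34, 2.20 and 3.42 FPKM in PRMT1 KD. Its knockdown value rests on 31 reads in the lowest library, PRMT1 KD 2, without which BATF no longer met the rule. PTPN6, the phosphatase SHP-1 that dampens receptor signalling, averaged 68.7% of Control, and LSP1, an actin-binding protein of leukocytes, 68.8%. NCF4, a subunit of the phagocyte oxidase, CLEC2L, a lectin-like protein, and IL4I1, an amino acid oxidase, lay between 70.9% and 73.3%.

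**Figure D3:**
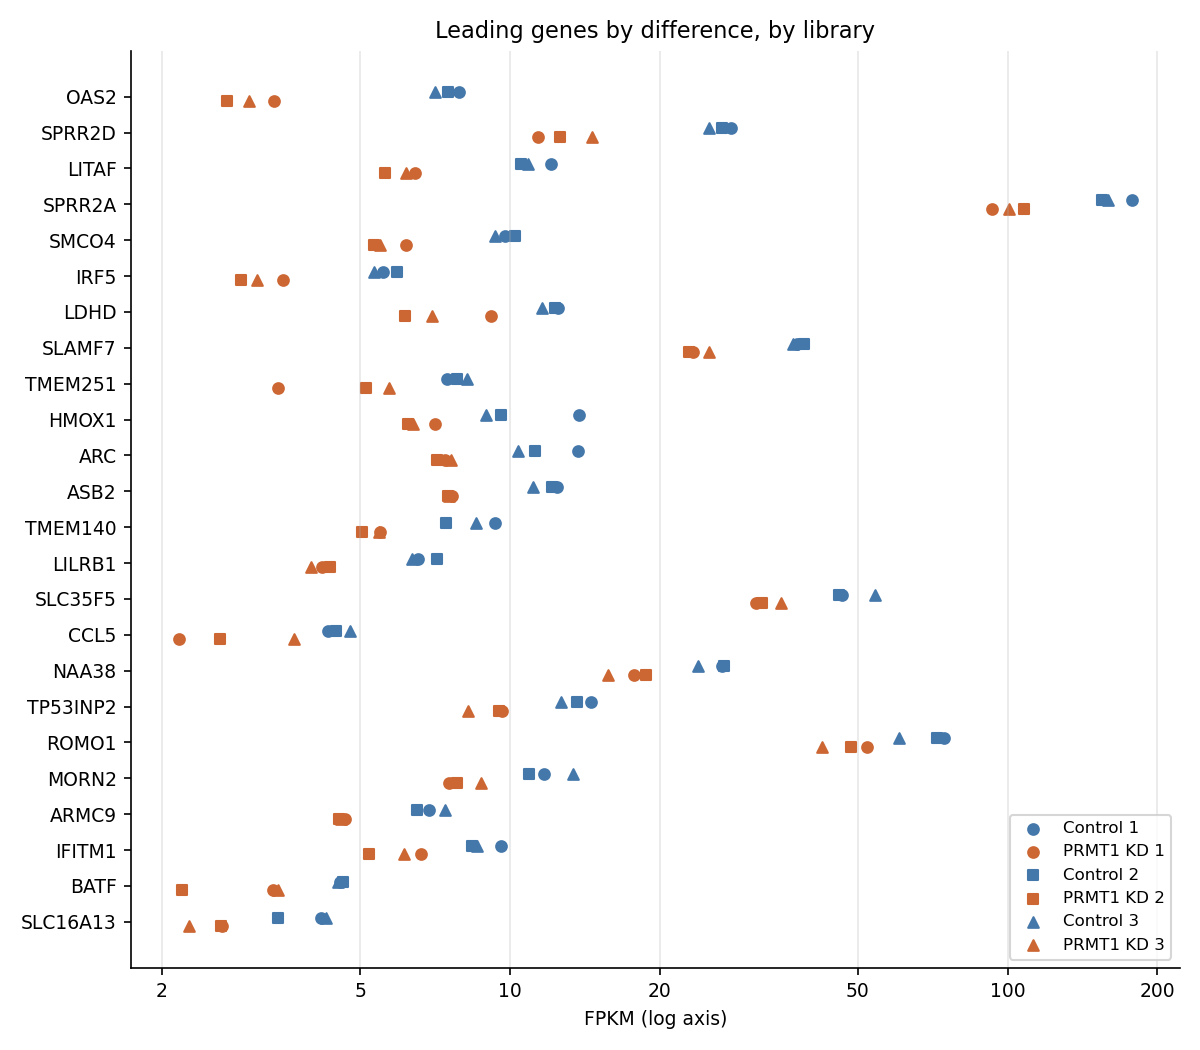
FPKM on a log axis for 24 of the 25 members with the lowest difference, from OAS2 at the top, with 1 symbol for each of the 3 Control (blue) and 3 PRMT1 KD (orange) libraries. The gap between the colours is wide for OAS2, SPRR2D and SLAMF7 and narrow for HMOX1, CCL5 and LDHD, in which 1 library stands apart from the others of its group.

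A pair of genes of the cornified envelope, the protein shell of skin cells, ranked among the 4 leading members. SPRR2D measured 27.8, 26.7 and 25.1 FPKM in Control and 11.4, 12.6 and 14.6 FPKM in PRMT1 KD (48.6% of Control). SPRR2A measured 178, 154 and 159 FPKM in Control and 92.9, 108 and 101 FPKM in PRMT1 KD (61.3%). They lie 14181 bases apart on the minus strand of chromosome 1 and encode small proline-rich proteins of 72 residues each. The other SPRR2 genes examined averaged 0.301 FPKM or less. Since these genes are near-identical in sequence, the counting may have split reads between them, and the separate values of SPRR2A and SPRR2D are uncertain. CNFN, another cornified envelope gene, CSTB, an inhibitor of cathepsins, and TFF3, a peptide of mucus, averaged 72.5%, 72.5% and 76.0% of Control.

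Matrix, adhesion and cytoskeleton genes held ARC and ASB2 at the front. ARC, an immediate early gene of neurons whose protein forms capsids, read 13.7, 11.2 and 10.4 FPKM in Control and 7.41, 7.15 and 7.62 FPKM in PRMT1 KD. For ASB2, a substrate receptor of a cullin ubiquitin ligase that acts on filamins, the values were 12.4, 12.1 and 11.1 FPKM against 7.64, 7.52 and 7.54 FPKM. The knockdown libraries of ASB2 were almost equal. RND3, a small GTPase that loosens stress fibres, KANK1, an adaptor at adhesions, and EFNA4, an ephrin ligand, lay at 68.2%, 67.3% and 68.0% of Control. SPARC, a secreted matrix protein, was near the limit of the rule, with 14.1, 14.3 and 13.99 FPKM against 10.6, 10.5 and 11.6 FPKM.

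In the lysosome and secretory pathway, SLC35F5, a member of a nucleotide-sugar transporter family, had 46.5, 45.9 and 54.1 FPKM against 31.3, 32.1 and 35.04 FPKM. TMEM251, a Golgi protein needed for the sorting of lysosomal enzymes, read 7.48, 7.81 and 8.20 FPKM against 3.42, 5.14 and 5.72 FPKM, and its lowest library held 77 reads. GM2A, the activator that presents ganglioside to a lysosomal hexosaminidase, averaged 76.3% of Control. APP, the amyloid precursor protein, was at 53.8, 54.5 and 52.7 FPKM in Control and 38.9, 39.7 and 38.8 FPKM in PRMT1 KD. TMED10, a cargo receptor between the endoplasmic reticulum and the Golgi, averaged 76.4%, and DPM3, which anchors dolichol-phosphate mannose synthase, 76.0%.

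Among metabolic genes, ENO1, the glycolytic enolase, had the highest level of all members. Its values were 349.8, 359.7 and 324 FPKM in Control and 245, 250.01 and 252 FPKM in PRMT1 KD, a knockdown mean of 72.3% of Control. LDHD, the mitochondrial D-lactate dehydrogenase, measured 12.5, 12.3 and 11.6 FPKM against 9.16, 6.15 and 6.99 FPKM, with PRMT1 KD library 1 above the other knockdown libraries. HMOX1, the heme oxygenase induced by oxidative stress, read 13.8, 9.59 and 8.96 FPKM against 7.08, 6.24 and 6.39 FPKM. Control library 1 of HMOX1 stood apart from the other controls, and the SD of its control group was 2.62 FPKM. ROMO1, a small protein of the inner mitochondrial membrane, had 74.6, 72.2 and 60.4 FPKM against 52.3, 48.4 and 42.4 FPKM. SLC16A13, a monocarboxylate transporter family member, TST, the rhodanese of sulfur metabolism, and OGDH, the dehydrogenase of the citric acid cycle that uses oxoglutarate, lay at 63.6%, 66.8% and 73.0% of Control. CHAC1, a glutathione-degrading target of the amino acid stress response, and HILPDA, a lipid droplet protein induced by hypoxia, were at 77.3% and 74.7%.

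Nuclear, RNA and protein turnover genes were led by NAA38, an auxiliary subunit of an N-terminal acetyltransferase, with 26.6, 26.9 and 23.8 FPKM in Control and 17.7, 18.8 and 15.7 FPKM in PRMT1 KD. TP53INP2, which takes part in autophagy, measured 14.6, 13.7 and 12.7 FPKM against 9.65, 9.53 and 8.23 FPKM. HIST2H2BE, a histone gene for H2B, had 24.7, 22.2 and 24.2 FPKM against 15.5, 18.3 and 16.6 FPKM. GON7, a subunit of the complex that modifies tRNA at threonylcarbamoyl adenosine, TMA7, a ribosome-associated protein, and GEMIN7, a member of the SMN complex that assembles spliceosomal particles, lay between 71.1% and 71.97% of Control. POLR2L, a subunit shared by the nuclear RNA polymerases, and PSMC3, an ATPase of the proteasome, were at 77.3% and 77.1%.

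Of the remaining genes, SMCO4, a small membrane protein, had 9.78, 10.2 and 9.35 FPKM in Control and 6.19, 5.34 and 5.48 FPKM in PRMT1 KD. TMEM140 stood at 9.32, 7.45 and 8.55 FPKM against 5.47, 5.05 and 5.45 FPKM. MORN2 and ARMC9, a cilium protein, averaged 67.0% and 66.3% of Control. UCN, the stress peptide urocortin, averaged 65.7% on as few as 28 reads, and C19orf71 66.4% on as few as 26. These are 2 of 12 members with fewer than 100 reads in a knockdown library, in which counting error is a large part of the value.

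PRMT1 KD library 3 was the lowest knockdown library in 41 members (44.6%), library 2 in 30 (32.6%) and library 1 in 21 (22.8%), where the shares in all candidates were 38.1%, 24.9% and 37.0%. Their median deviations from the control mean were -0.47, -0.44 and -0.42 on the log2(FPKM + 1) scale. On the control side, Control library 3 was the lowest in 56 members (60.9%), and it was the lowest control library in 50.3% of all candidates as well. Without Control library 3 the rule found 135 genes and without PRMT1 KD library 1 it found 139, against 92 with all 6. With each of the 6 libraries left out in turn, 54 members always met the rule, among them 24 of the 25 leading members, all but BATF. These are the values that chose the members, and the leading members lie farthest from the limit by definition. The count is therefore a description and no support. The same 54 met it with a pseudocount of 0.1, after rescaling to TPM, after quantile normalization and after a correction for gene length and GC.

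In a limma fit over 13585 genes, 54 of 92 members (58.7%) had an adjusted p under 0.05 and were called lower, where 0.986% of all genes tested were called lower. The members were chosen by the same contrast, so nothing is read from this count. No overlap between groups, with the knockdown lower, was seen in 982 of the 7755 candidates (12.7%), and this too was part of the rule. In a fit on reads worked back from FPKM (limma voom), 85 members were called lower, where 3.55% of the genes tested were. The rule mirrored upward gave 111 genes.

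The members were also read against 27 gene lists, of which 10 held at least 1 member. The interferon response list had 3 members, OAS2, IFITM1 and IFI27, among 33 genes tested. In that list 21 genes lay below 0, as did 6442 of all 13585 genes tested. The median log2 difference was -0.05 against 0.01 over all genes tested. The 3 members lay below 0 by the rule, and no test of the list was run. The list of surface antigens and adhesion receptors, 21 genes with SLAMF7 and ITGB2 as members, had a median of 0.02, and CD52 and ITGAL, which are no members, were also called lower (limma, adjusted p under 0.05). Among 17 histone genes, with HIST2H2BE as a member and a median of 0.03, HIST1H2AC was called lower too. The 29 glycolysis and hypoxia genes, with ENO1, had a median of -0.02, the 40 proteasome and ubiquitin genes, with PSMC3, a median of -0.03, and in neither list was a gene other than the member called.

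In other lists with a member, the genes called apart from the member were higher. These were SHMT1 among 34 amino acid stress genes (member CHAC1), IL6R and TNFSF9 among 18 chemokines, cytokines and receptors (CCL5), PRDX4 among 30 antioxidant genes (HMOX1), VIM, TPM4 and CORO1A among 42 cytoskeleton genes (LSP1) and MED11 among 47 genes of the general transcription machinery (POLR2L). All 10 list medians lay within 0.1 of 0. Calls of the members themselves in these lists come from the contrast that chose them and are not read as tests. They also depended on the fit: OAS2 and SLAMF7 were called in 15 of 15 settings, ENO1 in 8, IFITM1, ITGB2, HIST2H2BE and PSMC3 in 6 and LSP1 in 5 of 14, with adjusted p up to 0.187 (limma). POLR2L, CHAC1, CCL5, HMOX1 and IFI27 were not called in the main fit, on log2(FPKM + 1) with all 6 libraries. They were called in 4, 5, 1, 2 and 1 of the other settings, in that order. Each was called by voom.

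Gene structure was not a criterion of the rule, but FPKM divides by gene length, so length was not independent of the choice. In gene structure the members differed from the candidates. Median exonic gene length was 2714 bases in the members, 5112 bases in the candidates and 5676 bases in the genes of the mirrored rule. The median protein length was 277 residues against 476 residues, and the median 3′ UTR of the transcript with the longest coding sequence 572 bases against 939 bases. Coding sequences of members had a median GC content of 59.9%, against 52.0% in candidates and 48.3% in the mirrored set. Proteins under 150 residues made up 29.3% of members (27 of 92), 5.52% of candidates and 2.70% of the mirrored set. The shortest were SMCO4 (59 residues), HILPDA (63), TMA7 (64), POLR2L (67), SPRR2A and SPRR2D (72 each), C6orf48 (75), SS18L2 (77) and ROMO1 (79).

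The same was seen over quartiles of the candidates. In the shortest quartile, 213 to 3374 bases, 2.78% of candidates were members, and in the longest 0.361%. From the lowest to the highest quartile of coding GC the share of members was 0.207%, 0.620%, 1.497% and 2.43%, while the share of mirrored genes went the other way, from 2.22% to 0.981%. The median log2 difference of all candidates ran alongside, from -0.03 in the shortest to 0.06 in the longest quartile, and from 0.08 in the lowest to -0.03 in the highest quartile of GC. After subtracting in each library the median deviation of genes of like length and transcript GC, a step added after these values were seen, 69 of the 92 members still met the rule, including the 25 leading members. The 23 that no longer met it were of lower rank, among them POLR2L, PSMC3, CHAC1 and HILPDA. Leading members lie farthest from the limit by definition, so nothing is read from their being kept. The part of length and GC in the lower values was otherwise not tested.

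**Figure D4:**
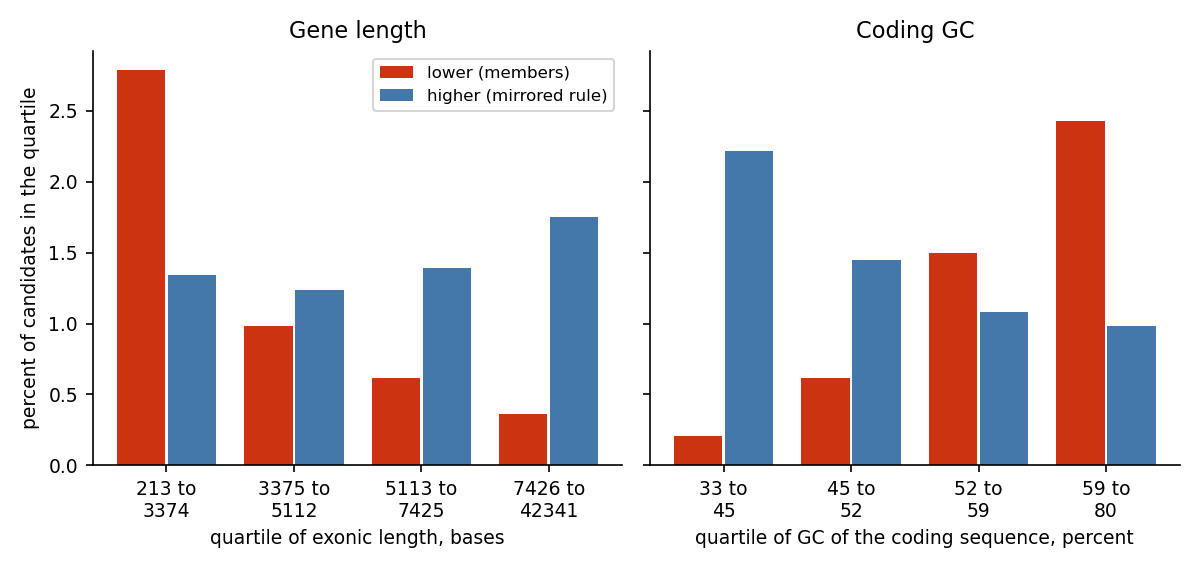
Bars give the percentage of candidate genes in each quartile of exonic gene length (left, bases) and of coding GC (right, percent) that were members (red) or met the mirrored rule upward (blue). The red bars fall from 2.78% to 0.361% with length and climb from 0.207% to 2.43% with GC.

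Members were found on many chromosomes, with 14 of 817 candidates on chromosome 1 (1.71%), 8 of 507 on chromosome 2 (1.58%) and 7 of 590 on chromosome 19 (1.19%), beside 1.19% of all candidates. The share was higher on chromosome 14 (7 of 268, 2.61%) and highest on chromosome 21, with 5 of 75 (6.67%), and no test was run. In 4 cases a pair lay within 100 kb. Besides SPRR2A and SPRR2D, these were TMEM251 and GON7 on chromosome 14 (15804 bases apart), EFNA4 and DPM3 on chromosome 1 (70337 bases apart), and C12orf57 and PTPN6 on chromosome 12, which follow each other on the plus strand with 464 bases between them. Of the 92 members, 62 overlapped another annotated gene, 29 on the same strand and 50 on the opposite one. The strand setting of the counting is not given in the sources used here, so reads of overlapping genes cannot be told apart from the members' own. Examples with an abundant partner are PPP1R10, whose overlapping partner reached 72.8 FPKM, CCDC97 (60.8 FPKM), MYL6B (43.5 FPKM) and TMEM198 (42.5 FPKM). The same limit holds for members described above, such as IL4I1 (partner at 36.8 FPKM) and NAA38 (26.3 FPKM).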

How the data were processed

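RNA sequencing of MM.1S cells was analysed in 3 Control (si-NC) and 3 PRMT1 KD libraries, grouped by the sample labels. The authors deposited FPKM values per gene, counted with featureCounts 1.5.0-p3 on hg38 according to the submitters' processing notes; the aligner and the strand setting are not given in the sources used here. FPKM multiplied by gene length gave whole reads for 100% of values above 0 (tolerance 0.01 reads), and the deposited values had been divided by median-of-ratios size factors, so they already carry a scaling between libraries. All 58735 gene identifiers matched GENCODE 29.

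The rule was applied to the deposited values. The 13585 genes whose FPKM averaged 1 or more were fitted in limma 3.58.1 (R 4.3.3) as log2(FPKM + 1). The fit was two-sided, with trended empirical Bayes variance and Benjamini-Hochberg adjustment. It was first tried on simulated reads with log2 changes of 1, larger than in any member but OAS2. Smaller changes, as in the other members, were not simulated. With 3 libraries against 3, an exact permutation test cannot go below p = 0.1. The fold of low genes is understated by the pseudocount of 1. Alternatives were another pseudocount, filter, scaling or limit, no trend, voom on worked-back reads, a replicate block and each library left out. Transcript features came from GENCODE 29 with Python 3.11.15 and promoters from RefSeq.

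The members and gene lists were chosen with earlier results of these data known. Genes named are the 25 leading members, members in a list, those nearest the limit and those within 100 kb of each other; any other member named was chosen after its values were seen. A single member is counted in all totals but is not reported here by name.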

Additional observations from a re-analysis of the deposited data

How the results depend on the processing

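The number of genes found by the rule rests on its limits: 268 genes with a limit of -0.25, 22 with -0.5, 146 with a mean FPKM of at least 1 and 45 with at least 10. With each library left out it ran from 87 to 139. With a pseudocount of 0.1 the members' median was -0.47. The number of limma calls depended on the filter, on the fit and on the length and GC correction. With no filter 11 members and 20 genes in all were called lower, with no trend 16 and 28, and with voom on worked-back reads 85 and 482. Genes called lower numbered 221 with a mean FPKM of at least 5 and 404 after the length and GC correction, which was chosen after seeing the data. With each library left out in turn, 3 to 25 members and 9 to 50 genes were called. Why fewer were called with a library left out was not tested. Same-numbered libraries deviated together weakly (r = 0.02, 0.06 and 0.10), while pairs of different number lay between -0.075 and 0.019. For each knockdown library the same-numbered control had the highest r. The main fit did not take the numbers as pairs, and with the replicate block 41 members and 99 genes were called. No member changed direction in any setting, which the rule largely fixed in advance by placing all knockdown libraries below all controls. Nothing is read from this. PRMT1 stayed called in all settings. At this depth, the 12 members with under 100 reads in a knockdown library are the least precise.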

Other observations

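A further 6 candidates differed by -0.35 or less but had overlapping groups, and in several of them a single library made the difference. BOLA2B, an iron-sulfur cluster assembly gene with a near-identical copy, stood at 29.5 FPKM in Control library 2 and between 0.177 and 1.24 FPKM in the other 5 libraries. AC007325.4 was at 9.96, 6.29 and 4.94 FPKM in Control and at 1.15, 9.33 and 4.76 FPKM in PRMT1 KD. The histone gene HIST1H2AE measured 4.39, 4.87 and 3.45 FPKM against 1.19, 2.73 and 3.74 FPKM. IL25, a cytokine of type 2 immunity, measured 4.77, 4.35 and 3.76 FPKM against 2.26, 3.30 and 3.79 FPKM. GPR89A and ZNF414, at -0.45 and -0.38 on the log2(FPKM + 1) scale, complete this group.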
